A study of Homo sapiens with 6 samples.

Results

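The ADAM and ADAMTS family was represented by 50 of the 19777 genes measured in this knockdown experiment. Members were chosen by symbol alone: a gene entered if a probe set was annotated to it and to no other gene, and if its symbol began with ADAM, ADAMTS or ADAMTSL followed by a number. Of the 50 genes, 41 encode proteins, 4 are pseudogenes and 5 are noncoding transcripts named after a neighbouring member. They were read by 118 probe sets, and 37 members had more than 1. A probe set is a group of short oligonucleotides on the array that reports 1 value, and each gene was represented by its brightest one. ADAM7, ADAM29 and ADAMTS7 had no probe set naming them alone and are not analysed here.

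One group was MDA-MB-231 cells transfected with an siRNA against ING2 (3 arrays), and the other was the same line transfected with a control siRNA that targets no gene (3 arrays). The line is an established, mesenchymal-like human breast cancer line, and both groups share its genotype and the culture conditions. ING2 is a PHD finger protein that recruits a SIN3 histone deacetylase complex to trimethylated histone H3. Only 1 ING2 siRNA is named, and the labels give RNA collection 4 days after transfection in one field and 3 days in another.

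ADAM proteins are membrane-anchored relatives of snake venom metalloproteases, and those with an intact zinc site cut other membrane proteins near the cell surface, a step called ectodomain shedding. Shedding releases growth factors such as the EGF receptor ligands, and it prepares Notch receptors and cadherins for further cleavage by gamma-secretase. ADAMTS proteins are secreted, carry thrombospondin repeats, and trim the extracellular matrix, while ADAMTS-like proteins keep the repeats and lack the protease. In breast cancer cells the best known sheddases are ADAM10 and ADAM17.

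The knockdown was seen in the target itself. ING2 read 163, 188 and 161 intensity units in the ING2 siRNA arrays, against 1400, 1349 and 1324 units in the control arrays, which is 12.5% of the control level (limma adjusted p = 1.85e-07). The dimmer ING2 probe set, 213544_at, read 34.6, 40.1 and 26.8 units after ING2 siRNA, against 73.1, 111 and 93.7 units in controls. That is 36.5% of control (limma adjusted p = 0.00472 over probe sets). With 3 arrays per group the precision is limited by their number. No label says that replicates came from separate cultures, so the p-values describe how these samples vary, and that variation may be technical. The median probe set value was 78.3 to 81.4 units in the ING2 siRNA arrays and 75.6 to 77.1 in the control arrays. The interquartile range of log2 values over genes was 3.643 ± 0.093 after ING2 siRNA and 3.838 ± 0.041 in controls (SD, n = 3 each, exact two-sided permutation p = 0.1). These ranges did not overlap between the groups, and their part in the results was not tested. The 3' end of the GAPDH control transcript read above its 5' end by 0.316 ± 0.042 log2 units after ING2 siRNA and by 0.205 ± 0.015 in controls (SD, n = 3 each, exact two-sided permutation p = 0.1, the smallest possible), with no overlap. For the ACTB control transcript the difference was 0.541 ± 0.096 after ING2 siRNA and 0.490 ± 0.110 in controls (SD, n = 3 each, exact two-sided permutation p = 0.6). The 6 markers of the mesenchymal state, including VIM, lay between percentiles 95.5 and 99.6 of genes by intensity. The 8 luminal markers ran from 5.50 (PGR) to 99.3 (KRT18) with KRT8 at 98.0, KRT19 at 97.7 and ESR1 at 40.9. The 4 blood cell markers measured ran from 8.53 (PTPRC) to 61.8 (CD14). No luminal or blood marker passed in limma, and 2 luminal genes and 1 blood gene had an unadjusted p under 0.05. Of 6 fibroblast markers, LUM fell (log2 change -0.87, limma adjusted p = 0.0205) and DCN rose (0.35, limma adjusted p = 0.0349), and the part of other cells in the results was not tested.

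Among the 50 members, 1 rose and 2 fell at an adjusted p under 0.05 in limma. ADAM28 and ADAM9, both active sheddases, were lower after ING2 siRNA, and ADAMTS14, which removes the amino-terminal propeptide of fibrillar procollagen, was higher. The rise corresponds to 2% of members against 3.62% of all genes, and the falls to 4% of members against 4.67% of all genes. After quantile normalization 8% of members rose against 4.77% of all genes, and after cyclic loess 6% against 2.26%, while after median centring none did in limma (10 had an unadjusted p under 0.05) against 1.31%. Of all genes, 716 rose and 924 fell, a balance that was 944 and 622 after quantile normalization, 447 and 686 after cyclic loess, and 260 and 1450 after median centring. Groups did not overlap, with all ING2 siRNA arrays above all control arrays, in 16 members (32% of members, against 22.8% of all genes), and with all below in 4 (8% of members, against 13.8% of all genes). The log2 changes ran from -0.46 to 0.41 with a median of 0.14, beside a median of 0.06 over all genes. A value above 0 was found for 42 of the 50 members and for 12194 of all 19777 genes. After quantile normalization the median was 0.06 with 37 members above 0, after median centring 0.07 with 34, and after cyclic loess 0.04 with 33, beside medians of 0.06, -0.01 and 0.03 over all genes in the same order. An unadjusted p under 0.05 was found for 17 of the 50 (34%, against 32.9% of all genes). The adjusted calls turned on single arrays. Lacking ING2 siRNA replicate 1 or 3, or control replicate 2 or 3, limma called 0 members and 2 or 3 of all genes, with 10 to 15 members at an unadjusted p under 0.05. Lacking ING2 siRNA replicate 2 it called 4 members higher and 3 lower, and lacking control replicate 1 it called 1 higher and 3 lower.

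**Figure D1:**
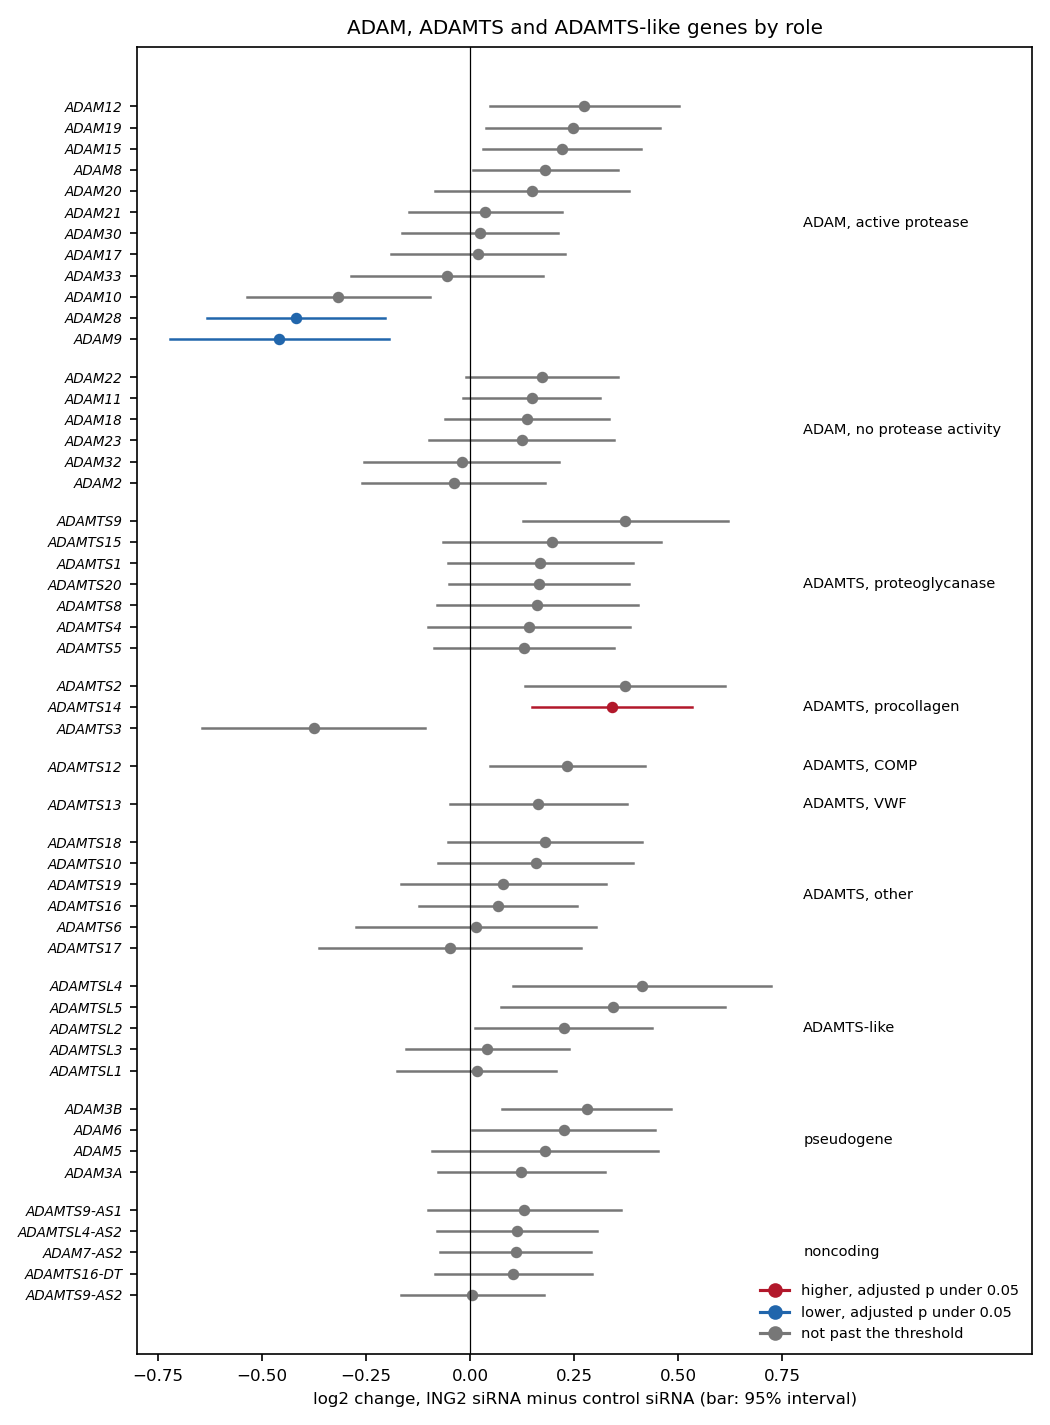
Log2 change (x axis, ING2 siRNA minus control siRNA, log2 units) of each of the 50 members, grouped by role, with 95% intervals from limma on 3 arrays per group. Red marks the 1 member that rose, blue the 2 that fell and grey the members that did not pass, most of which lie to the right of 0.

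Most of the family was dim on these arrays. Of the 50 members, 37 lay below the median gene by mean intensity, where the median log2 change was 0.14 for members and 0.14 for all genes, 0 members passed in limma, against 5.28% of all such genes higher and 1.09% lower, and 8 (21.6%) had an unadjusted p under 0.05 against 29.9%. Of these 37, 33 had a value above 0, against 7989 of the 9888 genes as dim. Above the median intensity lay 13 members, with a median log2 change of 0.18 against -0.04 over all genes as bright. These 13 include all 3 members that passed, 1 higher (7.69%, against 1.96% of all genes as bright) and 2 lower (15.4%, against 8.25%). Of the 13, 9 had a value above 0, against 4205 of the 9889 genes as bright. An unadjusted p under 0.05 was found for 9 of the 13 (69.2%), against 35.9% of all genes as bright. No detection call accompanied the values, so a dim probe set is not evidence that a transcript is present.

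**Figure D2:**
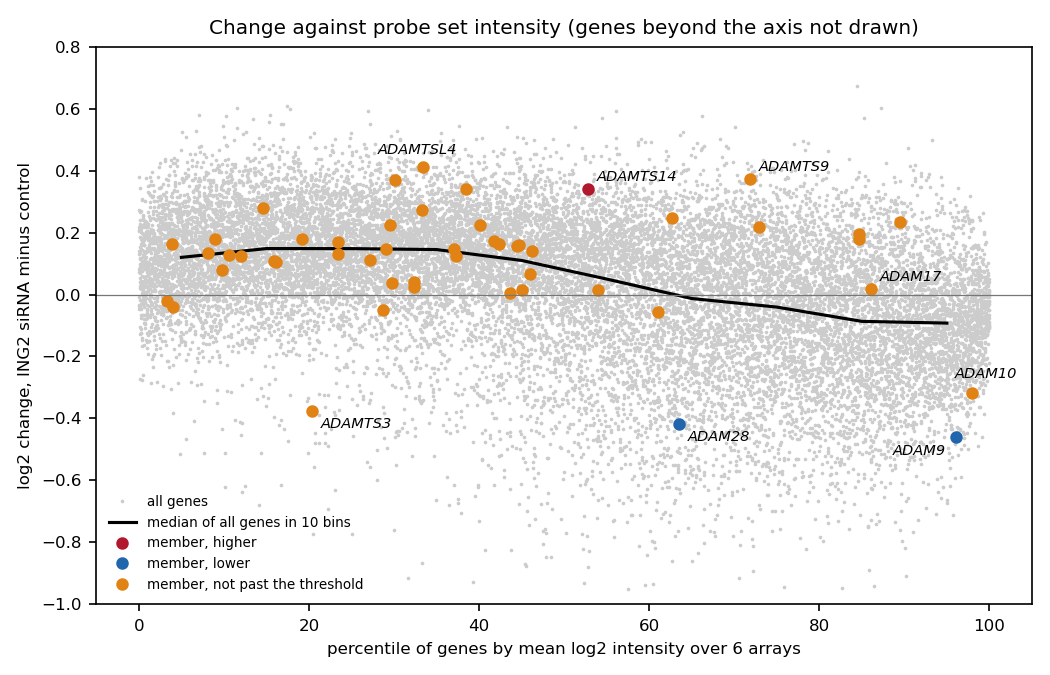
Log2 change (y axis, ING2 siRNA minus control) against the percentile of genes by mean log2 intensity (x axis) for all genes (light grey) and for the members (coloured), with the median of all genes in 10 equal bins as a black line. The line lies above 0 among dim genes, where 37 members are found, and below 0 at the bright end, where ADAM9 and ADAM10 lie beneath it.

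ADAM9, a widely expressed sheddase that can release heparin-binding EGF, fell. Its brightest probe set, 202381_at, read 3210, 3698 and 3284 units after ING2 siRNA, against 3878, 5044 and 5171 units in controls. Control replicate 1 was the lowest of the controls, yet the groups did not overlap. The log2 change was -0.46 (SE 0.12, 95% interval -0.72 to -0.20, limma adjusted p = 0.0449 over genes). In a bulk sample, fewer cells with a transcript and less of it per cell cannot be told apart. Quantile normalization moved the adjusted p to 0.0791 and cyclic loess to 0.0808, and in the fit over all probe sets it was 0.0597. In fits that each left out 1 array it ranged from -0.59 to -0.38 and passed without control replicate 1 (adjusted p = 0.0126) or ING2 siRNA replicate 2 (0.0331). It did not pass without control replicate 2 (0.141), control replicate 3 (0.140), ING2 siRNA replicate 1 (0.118) or ING2 siRNA replicate 3 (0.150).

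A second ADAM9 probe set also fell. Probe set 1555326_a_at read 618, 507 and 549 units after ING2 siRNA, against 1065, 1002 and 979 units in controls, so each ING2 siRNA array was below each control. This is 54.8% of control (log2 change -0.87, SE 0.10, limma adjusted p = 0.00391 over 54613 probe sets). It passed in each of the 6 fits that left out an array, with adjusted p from 0.00935 to 0.0371. The third probe set, 1570042_a_at, was dim and had a log2 change of 0.14 (SE 0.14, limma adjusted p = 0.525), with overlapping groups.

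ADAM10, the main sheddase of Notch receptors and N-cadherin and the principal alpha-secretase of the amyloid precursor protein, gave a like pattern in its dimmer probe sets. The brightest, 202603_at, read 5047, 5986 and 5682 units after ING2 siRNA, against 6257, 7190 and 7386 units in controls. All ING2 siRNA arrays were below all controls, but the log2 change of -0.32 (SE 0.10, 95% interval -0.54 to -0.10) did not pass (limma adjusted p = 0.0659 over genes). Probe set 214895_s_at read 534, 472 and 428 units after ING2 siRNA, against 1040, 1081 and 888 units in controls. That is a fall to 47.7% of control (log2 change -1.07, SE 0.11, limma adjusted p = 0.00313 over probe sets), and it passed in each of the 6 fits that left out an array (adjusted p from 0.00844 to 0.0298). Probe set 202604_x_at fell to 70.5% of control (690, 695 and 559 units after ING2 siRNA, against 906, 966 and 872 units in controls, limma adjusted p = 0.0325). Quantile normalization moved its adjusted p to 0.0586, and it passed without control replicate 1 (0.0413) or ING2 siRNA replicate 2 (0.0360) and not without any other single array (up to 0.115). The suffix x marks probe sets whose probes may also match other transcripts. When the probe set of largest interquartile range stood for each gene, ADAM10 passed with adjusted p = 0.00145, and with the mean of its probe sets it passed with 0.00485. With the brightest probe set it also passed with an intensity trend and robust eBayes (0.0323) and without control replicate 1 (0.0372). The change in that probe set shrank to -0.22 under quantile normalization (limma adjusted p = 0.157) and to -0.20 under cyclic loess (0.2045). Nor did that probe set pass without any other single array (adjusted p up to 0.197).

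**Figure D3:**
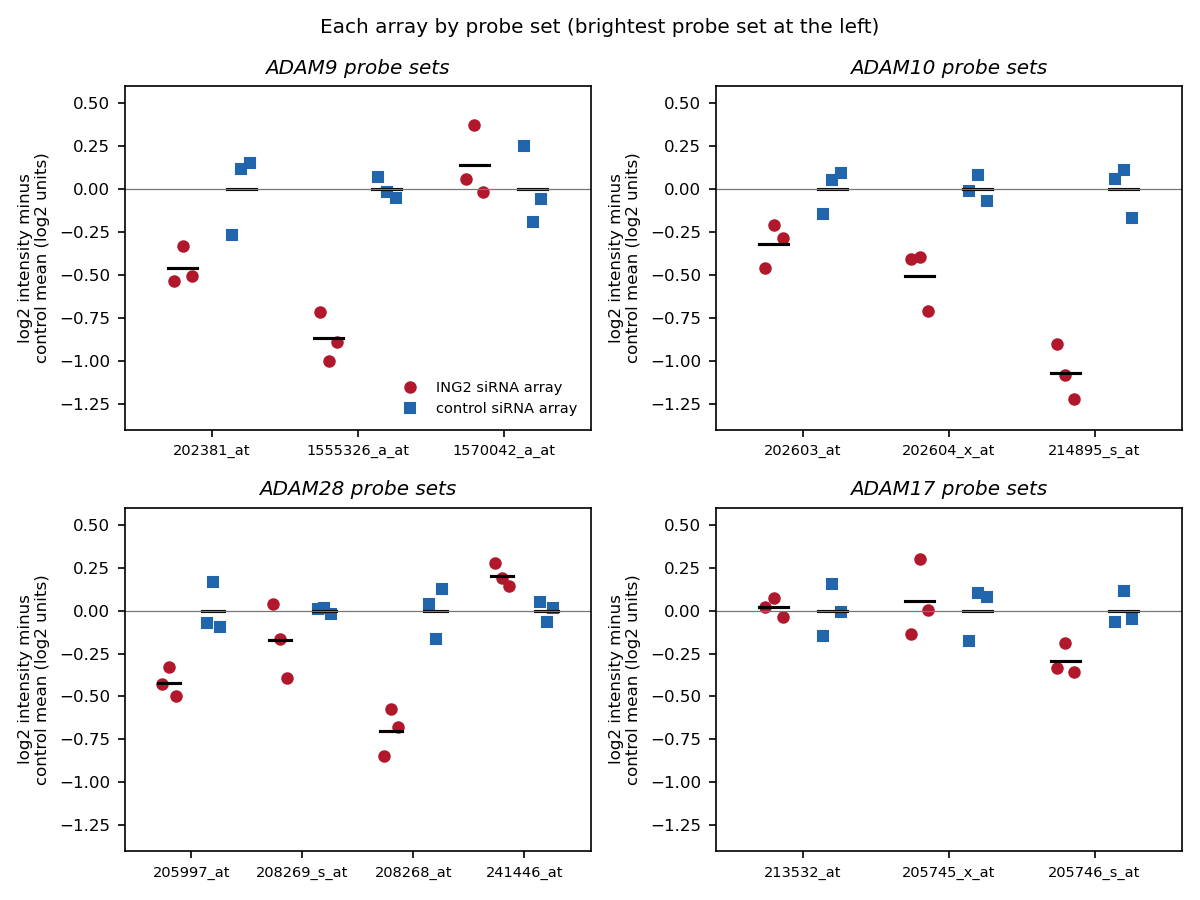
Log2 intensity minus the control mean (y axis, log2 units) for every probe set of ADAM9, ADAM10, ADAM28 and ADAM17 (x axis, brightest at the left of each panel). Red circles are the 3 ING2 siRNA arrays, blue squares the 3 control arrays and black bars the means. The ING2 siRNA arrays lie lowest for 214895_s_at of ADAM10 and 1555326_a_at of ADAM9, and other probe sets of the same genes lie nearer to 0.

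ADAM28, a lymphocyte and carcinoma sheddase that can cut IGF binding protein 3, fell as well. Probe set 205997_at read 315, 338 and 300.4 units after ING2 siRNA, against 404, 476 and 398 units in controls, with no overlap. The log2 change was -0.42 (SE 0.10, 95% interval -0.63 to -0.21, limma adjusted p = 0.0348 over genes). It passed without control replicate 1 (adjusted p = 0.0297) or ING2 siRNA replicate 2 (0.0290) and not without control replicate 2 (0.119), control replicate 3 (0.0929), ING2 siRNA replicate 1 (0.0927) or ING2 siRNA replicate 3 (0.131). A dimmer probe set, 208268_at, read 33.5, 40.5 and 37.7 units after ING2 siRNA, against 62.0, 53.7 and 65.8 units in controls, which is 61.6% of control (limma adjusted p = 0.0125). It passed without control replicate 1 (0.0190), control replicate 2 (0.0229) or ING2 siRNA replicate 2 (0.0203), and not without any other single array (up to 0.0687). Of the gene's remaining probe sets, 208269_s_at (log2 change -0.17) and 241446_at (0.20) did not pass.

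ADAM17, the TNF convertase and the closest relative of ADAM10, did not pass with any of its probe sets. Its brightest, 213532_at, read 1392, 1441 and 1334 units after ING2 siRNA, against 1239, 1523 and 1365 units in controls, and the ING2 siRNA values lay inside the control range. The log2 change was 0.02 with a 95% interval of -0.19 to 0.23 (limma adjusted p = 0.905). Only probe set 205746_s_at had groups apart, with 290.9, 322 and 287 units after ING2 siRNA against 350.2, 398 and 355 units in controls (log2 change -0.29, SE 0.09, limma adjusted p = 0.0890).

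Whether probe sets of 1 gene differed in their change was tested on the per-array difference between each further probe set and the brightest one, fitted in limma over 21314 such differences, a test chosen after the values were seen. Of the 68 differences within members, 0 passed an adjusted p under 0.05 and 15 (22.1%) had an unadjusted p under 0.05, against 19.9% of all differences. Over all genes, the further probe set moved above the brightest one in 0.108% of differences and below it in 0.0938%. The member differences with the smallest p were those of 241446_at against 205997_at of ADAM28 (0.62, SE 0.13, limma adjusted p = 0.0718) and of 214895_s_at against 202603_at of ADAM10 (-0.75, SE 0.17, limma adjusted p = 0.0814). For 1555326_a_at against 202381_at of ADAM9 the difference was -0.41 (SE 0.18, limma adjusted p = 0.247). The GAPDH 3' to 5' values given above also did not overlap between the groups, and their part in such differences was not tested. Over the 118 member probe sets, 5 fell (4.24%, against 3.64% of all probe sets) and 1 rose (0.847%, against 1.64%). The rise was in 244463_at of ADAM23, an inactive neural ADAM, with 14.3, 13.8 and 13.5 units after ING2 siRNA against 10.9, 10.6 and 9.81 units in controls (limma adjusted p = 0.0312). Its adjusted p was 0.0658 after quantile normalization, 0.0682 after cyclic loess and up to 0.113 without single arrays, where it passed without control replicate 1 (0.0297) or ING2 siRNA replicate 2 (0.0468). Probe set 244463_at was dim, at percentile 10.0 of probe sets by intensity, and the brightest ADAM23 probe set had overlapping groups (log2 change 0.12). Of the 37 members with several probe sets, 21 had all of them on one side of 0.

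The other active ADAM proteases had values above 0 or near it. ADAM8, a sheddase of leukocytes and invasive breast cancer cells, read 1286, 1325 and 1338 units after ING2 siRNA, against 1213, 1166 and 1108 units in controls (log2 change 0.18, limma adjusted p = 0.142). The groups did not overlap, and ADAM8 passed as higher after quantile normalization alone among the alternatives fitted (adjusted p = 0.0492). Its dimmer probe set had a value of the other sign (-0.15). ADAM15, which carries an RGD integrin-binding motif in the human protein, read 644, 655 and 685 units after ING2 siRNA, against 604, 522 and 579 units in controls (0.22, limma adjusted p = 0.110). ADAM19, a neuregulin-processing sheddase, had a log2 change of 0.25 (limma adjusted p = 0.106), and ADAM12, known from myoblast fusion and tumour stroma, 0.27 (0.0999). Arrays of the groups did not overlap for either gene. The dimmer ADAM12 probe sets had values from -0.05 to 0.21, and only 215613_at (0.21) had groups apart. With the mean of its probe sets ADAM12 had a value of 0.13 (limma adjusted p = 0.227). ADAM33 had a log2 change of -0.06 with overlapping groups and was above 0 after quantile normalization (0.02). Of the 12 active ADAM genes, 0 rose and 2 fell, 8 were above 0 and the median was 0.03 (-0.04 after median centring, with 5 above 0). The testis proteases ADAM20, ADAM21 and ADAM30 were dim, with values from 0.02 to 0.15 and overlapping groups.

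The 6 ADAM genes whose proteins lack protease activity had 0 calls in limma and 0 with an unadjusted p under 0.05. Their log2 changes ran from -0.04 for the sperm protein gene ADAM2 to 0.17 for ADAM22, a neuronal receptor of LGI1. ADAM11, a neural adhesion protein, read 93.7, 94.2 and 93.8 units after ING2 siRNA, against 84.5, 84.4 and 85.4 units in controls. The arrays of each group lay close together and the groups did not overlap, but the log2 change of 0.15 did not pass (limma adjusted p = 0.191).

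ADAMTS14 rose, the only member to do so. It read 231, 221 and 238 units after ING2 siRNA, against 186, 193 and 167 units in controls, and each ING2 siRNA array was above each control. The log2 change was 0.34 (SE 0.09, 95% interval 0.15 to 0.53, limma adjusted p = 0.0427). Median centring moved the adjusted p to 0.0760, and in the fit over all probe sets it was 0.0596. It passed without control replicate 1 (0.0448) or ING2 siRNA replicate 2 (0.0427), and not without control replicate 2 (0.102), control replicate 3 (0.143), ING2 siRNA replicate 1 (0.104) or ING2 siRNA replicate 3 (0.142). The other procollagen N-proteinases had values on both sides of 0. ADAMTS2, the main processor of type I procollagen, read 79.1, 65.7 and 81.7 units after ING2 siRNA, against 54.8, 55.3 and 64.8 units in controls (log2 change 0.37, limma adjusted p = 0.0570). ADAMTS3, which also activates VEGF-C, read 29.6, 39.8 and 39.2 units after ING2 siRNA, against 43.3, 50.1 and 46.6 units in controls (-0.38, limma adjusted p = 0.0697). Neither passed, and in both the groups did not overlap. ADAMTS2 passed as higher without dim probe sets (adjusted p = 0.0474) and without ING2 siRNA replicate 2 (0.0270).

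The proteoglycanases, which cut aggrecan and versican, numbered 7, of which 0 passed in limma, 1 had an unadjusted p under 0.05, and all 7 had a value above 0, with a median of 0.17. Of these 7, 5 lay below the median intensity, where 7989 of 9888 genes were above 0 as deposited. All 7 proteoglycanases were also above 0 after quantile normalization (median 0.13), median centring (0.09) and cyclic loess (0.09). ADAMTS9 had the smallest p of them. It read 603, 712 and 659 units after ING2 siRNA, against 435, 549 and 547 units in controls, with no overlap (log2 change 0.37, SE 0.11, limma adjusted p = 0.0599). It passed as higher after quantile normalization (adjusted p = 0.0310) and cyclic loess (0.0407), without dim probe sets (0.0498) and with an intensity trend and robust eBayes (0.0453). ADAMTS9 did not pass after median centring (0.1334) or in any fit that left out an array (0.0937 to 0.167). With the mean of its probe sets the value was 0.13 (limma adjusted p = 0.2004). Its dimmer probe sets had overlapping groups and values of -0.11 (1554697_at), 0.16 (233785_at) and 0.09 (220287_at). ADAMTS15 read 1178, 1425 and 1394 units after ING2 siRNA, against 1364, 1079 and 1057 units in controls (0.20, limma adjusted p = 0.261), where control replicate 1 lay among the ING2 siRNA arrays. ADAMTS4, a principal aggrecanase of cartilage, had a log2 change of 0.14 (limma adjusted p = 0.378) and overlapping groups.

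ADAMTS12, which cuts cartilage oligomeric matrix protein, read 1892, 2027 and 1902 units after ING2 siRNA, against 1596, 1779 and 1580 units in controls. The groups did not overlap, and the log2 change of 0.23 (SE 0.08, limma adjusted p = 0.0922) did not pass, but passed as higher after quantile normalization (0.0327) and cyclic loess (0.0407). The plasma protease gene ADAMTS13, which cuts von Willebrand factor, had a value of 0.16 with overlapping groups. The 6 remaining ADAMTS genes had 0 calls in limma, 0 with an unadjusted p under 0.05, and values from -0.05 (ADAMTS17) to 0.18 (ADAMTS18). ADAMTS6 and ADAMTS10, which act on fibrillin microfibrils, had values of 0.01 and 0.16, and ADAMTS16 had 0.07. ADAMTS6 and ADAMTS16 turned below 0 after median centring. Among 5 ADAMTS-like genes 0 passed in limma and 3 had an unadjusted p under 0.05. All 5 lay below the median intensity and were above 0 as deposited, and 3 of them were above 0 under each of the other scalings. ADAMTSL4, a fibrillin-binding protein of the lens ligament, had the highest value of the family, 0.41 (SE 0.14, limma adjusted p = 0.0792), with 77.9, 86.1 and 103 units after ING2 siRNA against 54.3, 71.3 and 75.5 units in controls. Its second probe set had a value of -0.14. The 4 pseudogenes and 5 noncoding transcripts were all below the median intensity, with 0 calls in limma, 2 with an unadjusted p under 0.05 and values from 0.00 (ADAMTS9-AS2) to 0.28 (ADAM3B). All 9 were above 0 as deposited, 8 after quantile normalization, 8 after median centring and 5 after cyclic loess.

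Promoter sequence is shown for ADAM10, with its fall in some probe sets, for ADAM17, its relative with no call, and for ADAMTS14, the member that rose. The stretches are the 250 bases before the RefSeq start of each gene in GRCh38.p14, on the gene's strand: chr15:58749708-58749957 (minus strand) for ADAM10, chr2:9555831-9556080 (minus strand) for ADAM17 and chr10:70672256-70672505 (plus strand) for ADAMTS14. Capitals mark GC boxes (GGGCGG, or CCGCCC on the other strand), the only 1 of 3 searched motifs found in them.
ADAM10: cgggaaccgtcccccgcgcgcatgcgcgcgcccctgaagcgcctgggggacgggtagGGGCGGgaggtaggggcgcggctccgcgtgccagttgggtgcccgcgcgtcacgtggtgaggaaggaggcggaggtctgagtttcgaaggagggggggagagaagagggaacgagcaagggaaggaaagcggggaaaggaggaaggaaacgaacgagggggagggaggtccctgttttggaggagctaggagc
ADAM17: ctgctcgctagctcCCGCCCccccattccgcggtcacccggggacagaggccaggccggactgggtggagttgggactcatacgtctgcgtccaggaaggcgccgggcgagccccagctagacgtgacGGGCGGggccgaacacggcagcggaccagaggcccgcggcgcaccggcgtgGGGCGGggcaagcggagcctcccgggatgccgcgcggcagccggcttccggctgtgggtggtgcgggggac
ADAMTS14: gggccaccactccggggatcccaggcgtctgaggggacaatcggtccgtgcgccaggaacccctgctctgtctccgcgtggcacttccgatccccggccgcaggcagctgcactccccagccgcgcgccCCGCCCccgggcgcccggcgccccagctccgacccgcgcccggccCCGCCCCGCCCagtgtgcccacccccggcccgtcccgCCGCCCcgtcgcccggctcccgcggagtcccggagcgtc

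The ADAM10 stretch held 1 GC box and 25 CpG pairs, that of ADAM17 held 3 GC boxes and 31 CpG pairs, and that of ADAMTS14 held 4 GC boxes, 2 of them sharing 1 base, and 35 CpG pairs. None of the 3 held a TATA box (TATAAA, or TTTATA on the other strand) or a CCAAT box (CCAAT or ATTGG). Promoters were listed and searched for 29 members. Members on chromosome 8, with ADAM9 and ADAM28 among them, were left out of this search, while the promoters of all genes were not limited in this way. A GC box was in 72.4% of them against 42.3% of 27305 promoters in the table, a CCAAT box in 31% against 33%, and a TATA box in 10.3% against 11.1%. The median number of CpG pairs was 24 in members and 11 in all. The 27305 promoters outnumber the 19777 genes measured, so this background includes genes that the members were not drawn from. The motif matches describe letters in a window and are not measured binding sites.

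Genes that act with the family were followed in 6 lists, which share the background of 3.62% higher and 4.67% lower over all genes. In that background 12194 of 19777 genes were above 0, with a median log2 change of 0.06. Over the 75 genes measured in them, 1 rose and 2 fell, and the median log2 change was 0.09. The rise was in NOTCH4 and the falls were in TSPAN15 and the EGF receptor ligand gene BTC.

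Among 13 carriers and convertases of sheddases, 1 fell, 0 rose, 10 were above 0 and the median was 0.15. TSPAN15, a tetraspanin that brings ADAM10 to the cell surface and directs it to N-cadherin, read 307, 314 and 315 units after ING2 siRNA, against 409, 396 and 399.5 units in controls. The arrays of each group lay close together and apart from the other group. The log2 change was -0.36 (SE 0.07, limma adjusted p = 0.0292). Quantile normalization moved the adjusted p to 0.0515. TSPAN15 passed without control replicate 1 or ING2 siRNA replicate 2 only among the fits that left out an array (adjusted p up to 0.117). Named after its values were seen, RHBDF2, an iRhom that carries ADAM17 out of the endoplasmic reticulum, read 801, 767 and 842 units after ING2 siRNA, against 684, 684 and 651 units in controls (0.26, limma adjusted p = 0.0661). The other iRhom gene, RHBDF1, had a value of 0.34 (limma adjusted p = 0.0806) and FRMD8, which stabilises iRhoms, 0.28 (0.0864), none of them past the threshold. The dimmer RHBDF1 probe set, 222711_s_at, had a value of 0.05 with overlapping groups.

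Of 33 shed membrane proteins, 1 rose and 1 fell, 21 were above 0 and the median was 0.10. BTC, the gene of betacellulin, read 49.3, 55.5 and 54.7 units after ING2 siRNA, against 67.3, 90.5 and 69.0 units in controls, a log2 change of -0.50 (SE 0.12, limma adjusted p = 0.0369). Its other probe set was also lower, at 72.9% of control. NOTCH4 read 127, 111 and 119.6 units after ING2 siRNA, against 84.0, 89.5 and 92.1 units in controls (0.43, SE 0.09, limma adjusted p = 0.0266). Its other probe set had a value of 0.04, and with the mean of both NOTCH4 had adjusted p = 0.0944. Both BTC and NOTCH4 lay below the median intensity, and both passed without control replicate 1 or ING2 siRNA replicate 2 and in no other fit that left out an array (adjusted p up to 0.128 and 0.117).

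Of 6 inhibitors, 0 passed in limma and 2 had an unadjusted p under 0.05, with a median of -0.07. TIMP4, an inhibitor of metalloproteases, read 201, 229 and 202 units after ING2 siRNA, against 245, 277 and 270.4 units in controls (log2 change -0.33, limma adjusted p = 0.0523). It passed as lower after median centring (adjusted p = 0.0389), without dim probe sets (0.0421), with the mean (0.0332) or the most variable (0.0490) of the probe sets of each gene, with an intensity trend and robust eBayes (0.0424), without ING2 siRNA replicate 2 (0.0347) and without control replicate 1 (0.0359). RECK, a membrane-anchored inhibitor that acts on ADAM10, read 209, 267 and 272 units after ING2 siRNA, against 274, 377 and 396 units in controls (-0.48, limma adjusted p = 0.0671), and it passed without control replicate 1 (0.0182). Of its 4 dimmer probe sets, 1558116_x_at fell to 74.6% of control (limma adjusted p = 0.0479 over probe sets), and the others had overlapping groups and values from -0.12 to 0.15. In both genes the groups did not overlap, and for RECK control replicate 1 lay just above the highest ING2 siRNA array. Of 5 gamma-secretase subunits measured, 0 passed and 1 had an unadjusted p under 0.05 in limma, with APH1B at -0.19 (limma adjusted p = 0.141) and APH1A at -0.15 (0.202). Of 16 matrix substrates of ADAMTS proteins, 0 passed and 4 had an unadjusted p under 0.05 in limma, with a median of 0.10, among them COL5A1 at 0.29 (limma adjusted p = 0.0760) and NCAN at 0.30 (0.0743). COL5A1 passed as higher after quantile normalization (adjusted p = 0.0422) and without control replicate 1 (0.0406), and NCAN without ING2 siRNA replicate 2 (0.0465). POFUT2 (0.20) and B3GLCT (0.07), which add sugars to thrombospondin repeats, did not pass (limma adjusted p = 0.114 and 0.673), and POFUT2 passed as higher after quantile normalization (0.0481).

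**Figure D4:**
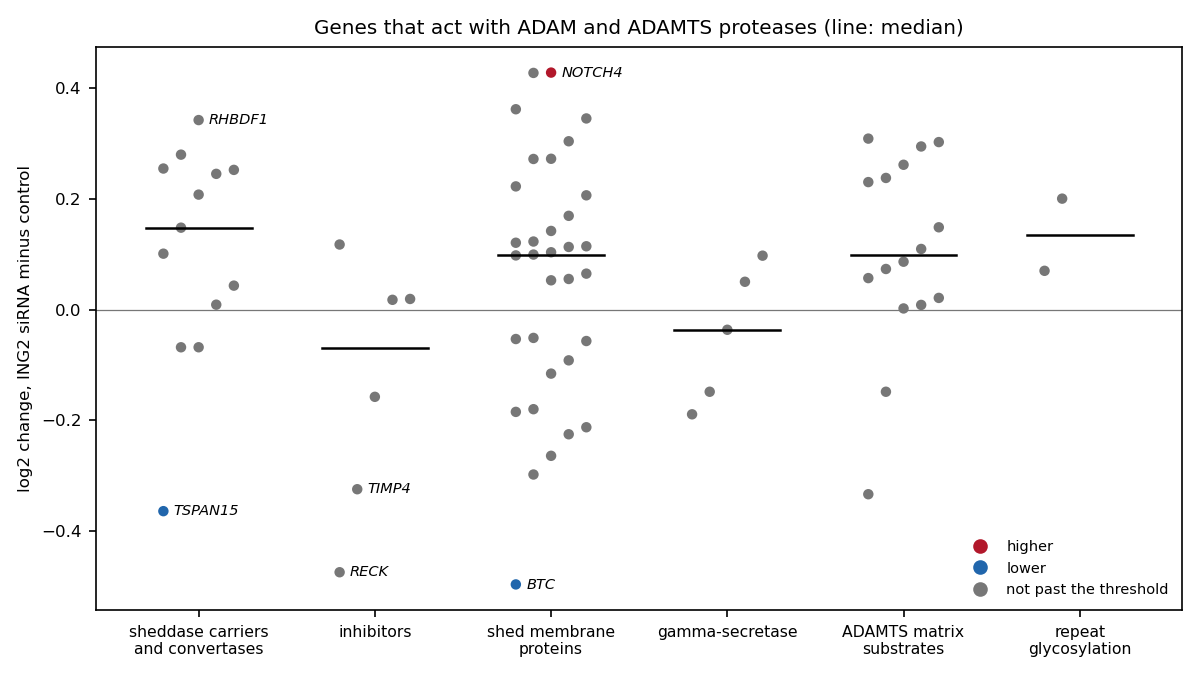
Log2 change (y axis, ING2 siRNA minus control, log2 units) of each gene in 6 lists of genes that act with ADAM and ADAMTS proteases (x axis), with the list median as a black line. NOTCH4 (red) rose and TSPAN15 and BTC (blue) fell, and the grey genes did not pass.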

How the data were processed

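RNA of 6 samples of MDA-MB-231 cells was read on one-colour arrays, 3 per siRNA group, assigned by sample title. The values the authors deposited are linear intensity, 1 per probe set, from 4.05 to 33803. The submitters' processing notes name RMA and R 2.12. The sources used here do not state how RMA values became linear. The log2 of each value was fitted in R 4.3.3 with lmFit and eBayes of limma 3.58.1, taking control from ING2 siRNA, without covariates, pseudocount or filter on low values, so all 50 members were tested. The fit covered 19777 genes, after 62 control probe sets were left out, with Benjamini-Hochberg adjustment and a threshold of 0.05. A second fit covered 54613 probe sets. Genes were named from a 2016 platform annotation updated to RefSeq GRCh38.p14: 41091 probe sets named 1 gene, 1801 several and 11721 none. The limma fit was tested on simulated data with independent noise of equal spread in all genes and no differences between arrays. That test does not show how the fit handles differences between the real arrays.

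The members and lists were chosen with earlier results of these data known. Named by rule were members past the threshold, the somatic active ADAM genes, the 15 members with the highest mean, the 5 with the smallest p, members with a called probe set, and, per list, called genes or the 2 with the smallest p. Members and list genes named beyond this were named after their values were seen. Alternatives were quantile normalization, cyclic loess, median centring, leaving out dim probe sets (under percentile 30), the mean or the most variable of a gene's probe sets, an intensity trend with robust eBayes, a replicate block, leaving out each array, and each probe set on its own.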

Additional observations from a re-analysis of the deposited data

How the results depend on the processing

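The number of arrays and the lack of detection calls limit what can be said of dim members. The count of 1 member that rose was 4 after quantile normalization, 3 after cyclic loess and 3 without dim probe sets. It was 2 with the most variable probe set and 2 with an intensity trend and robust eBayes. After median centring it was 0, and without single arrays it ran from 0 to 4. The count of 2 that fell was 3 with the mean of probe sets, the most variable one or the trend. Without single arrays it ran from 0 to 3. With each probe set on its own, counting only the brightest of each member, 0 rose and 1 fell. Over all 118 member probe sets in that fit, 1 rose and 5 fell. Where both counts were 0 (in fits lacking control array 2 or 3, ING2 siRNA array 1, or ING2 siRNA array 3), limma gave 10 to 15 members an unadjusted p under 0.05. After median centring that number was 10. The median of 0.14 was 0.0648 after quantile normalization, 0.0384 after cyclic loess and 0.0670 after median centring, and 0.106 to 0.150 without single arrays. The count of 3 related genes was 9 after quantile normalization, 5 after cyclic loess, 5 without dim probe sets, 6 with the mean of probe sets, 10 with the most variable one, 5 with the trend and 0 to 9 without single arrays (11 to 24 at an unadjusted p under 0.05 in the limma fits with 0). Over all genes, the 716 higher and 924 lower were 1229 and 1391 with the mean of probe sets, 1307 and 1953 with the most variable one, 971 and 1436 with the trend, 1227 and 1350 without ING2 siRNA replicate 2, 982 and 1631 without control replicate 1, and 0 and at most 3 without any other array. The 6 called probe sets of members were 2 to 9 without single arrays, and 214895_s_at of ADAM10 and 1555326_a_at of ADAM9 passed in all alternatives fitted to them. The cause of these shifts was not tested.

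With the replicate block, 4 members rose, 4 fell, 9 related genes and 11 member probe sets passed, and over all genes 1630 rose and 1878 fell. With it, adjusted p was 0.0295 for ADAM10, 0.0249 for ADAMTS2, 0.0213 for ADAMTS9, 0.0295 for TIMP4, 0.00999 for RECK and 0.0399 for NCAN, none of which passed without it in the fit as reported. Deviations of same-numbered arrays from their group means had r of 0.263, 0.291 and -0.019 for numbers 1 to 3 across genes. Arrays of different numbers had r from -0.311 to 0.0996. Genes are not independent, and these r values were not tested. The sample titles number the arrays without saying that equal numbers belong together. Whether they are pairs is therefore not known, and they are not taken as such.

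Among values that did not pass, signs turned after median centring for ADAM17 (-0.0532, and -0.0169 for 205745_x_at), ADAMTS6 (-0.0575), ADAMTS16 (-0.0051) and B3GLCT (-0.0015). With the mean of probe sets they turned for ADAM17 (-0.0737), ADAM33 (0.0958) and B3GLCT (-0.199), and with the most variable probe set for ADAM8 (-0.150), ADAM17 (-0.294) and B3GLCT (-0.469). ADAM33 turned to 0.0178 after quantile normalization, and 213808_at of ADAM23 to -0.0062 after quantile normalization and -0.0110 after cyclic loess. Without single arrays, the ranges were -0.0548 to 0.0943 for ADAM17, -0.0675 to 0.150 for its probe set 205745_x_at, -0.119 to 0.112 for ADAMTS6, -0.0165 to 0.165 for B3GLCT and -0.0199 to 0.188 for 213808_at.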

Other observations

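A probe set shared by ADAM29, a sperm ADAM without protease activity, and an uncharacterised transcript lies outside the symbol rule. It read 18.4, 13.7 and 14.1 units after ING2 siRNA, against 10.4, 11.1 and 11.5 units in controls, and the groups did not overlap (log2 change 0.47, SE 0.12, limma adjusted p = 0.0516 over probe sets). ADAMDEC1, a secreted relative, had a log2 change of -0.05 (SE 0.09, limma adjusted p = 0.713).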
